A study of Mus musculus with 6 samples.

Results

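Long intergenic noncoding RNAs (lincRNAs), transcripts longer than most small RNAs that lie between or beside protein-coding genes, were followed in cultured chondrocytes of Postn-/- and wt mice. A gene was taken when GENCODE M21 gives it the biotype lincRNA and its CPM (the count of a gene relative to all counts of its library) was above 1 in each of the 6 samples. H19, Meg3 and genes on chromosomes X and Y were left out. Of 41388 genes in the deposited tables, 2521 were lincRNAs and 144 met this rule. The members were thus selected on their CPM in these same samples, and their levels are given as a description.

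The cells came from femoral head cartilage, taken from male mice at an age of 21 days, and were kept for 2 days without treatment before RNA was extracted. Postn-/- was compared with wt, with 3 samples per genotype. The knockout mice were homozygous for the Postn tm1Jmol/J allele from The Jackson Laboratory on a B6129SF2/J background, labelled B6/129, and carry the deletion in every tissue rather than only in cartilage. The wt mice were wild type at Postn, and the study's methods describe littermates from crosses of heterozygotes. The study's methods give as many mice as samples for each genotype. The labels number the samples 1 to 3 and do not say which mice were littermates.

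Many lincRNAs stay in the nucleus, where Malat1 gathers at the speckles that store splicing factors and Neat1 forms the scaffold of paraspeckles. Others are host genes: their introns hold small nucleolar RNAs, which guide chemical modification of other RNAs, or their transcript is cut into microRNAs, which bind target messages through a short seed. For most of the remaining lincRNAs no function is known, and many stand beside the start of a coding gene and are transcribed away from it. Of the 144 members, 67 had only a numbered Gm symbol, 49 a Rik symbol and 28 another name.

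Of the 144, 14 held an annotated small RNA inside the gene on the same strand. The following are given because they are the products these host lincRNAs are known for, and the counts of the hosts are reported with the results. Mature microRNAs are printed from RefSeq (GRCm38.p6), 5′ to 3′, with the seed, bases 2 to 8, in capitals. The first 6 lie in Mir17hg on chromosome 14, the next 3 in 6720427I07Rik on chromosome 13, and the last 3 in A430106G13Rik, E130102H24Rik and 2900076A07Rik.
miR-17-5p: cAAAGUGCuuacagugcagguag
miR-20a-5p: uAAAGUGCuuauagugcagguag
miR-18a-5p: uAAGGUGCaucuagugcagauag
miR-19a-3p: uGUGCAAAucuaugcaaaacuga
miR-19b-3p: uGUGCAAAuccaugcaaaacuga
miR-92a-3p: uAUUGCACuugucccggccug
let-7a-5p: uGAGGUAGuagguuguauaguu
let-7d-5p: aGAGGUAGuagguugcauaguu
let-7f-5p: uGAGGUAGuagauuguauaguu
miR-181b-5p: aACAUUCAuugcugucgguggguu
miR-101a-3p: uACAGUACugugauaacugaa
miR-1839-5p: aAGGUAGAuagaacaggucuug
The 12 sequences carried 8 distinct seeds. The 3 let-7 sequences shared 1 seed, miR-17-5p shared its seed with miR-20a-5p, and miR-19a-3p shared its seed with miR-19b-3p. The libraries did not measure mature microRNAs.

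Small nucleolar RNAs of the C/D type are marked by a C box near the 5′ end and a D box near the 3′ end. In the GENCODE M21 sequences (GRCm38) below, capitals mark TGATGA within the first 20 bases and CTGA within the last 15. Snord123 lies in Snhg18 (chr15:32241853-32241923, minus strand), Snord87 in Snhg6 (chr1:9942463-9942549, minus strand), Snord99 in Snhg12 (chr4:132310691-132310764, plus strand) and Snord93 in 2700038G22Rik (chr5:23852210-23852280, plus strand).
Snord123: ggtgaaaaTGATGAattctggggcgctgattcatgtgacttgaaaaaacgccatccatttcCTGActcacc
Snord87: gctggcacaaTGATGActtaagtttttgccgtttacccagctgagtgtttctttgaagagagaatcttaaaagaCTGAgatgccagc
Snord99: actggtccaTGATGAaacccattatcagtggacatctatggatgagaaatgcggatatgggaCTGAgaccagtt
Snord93: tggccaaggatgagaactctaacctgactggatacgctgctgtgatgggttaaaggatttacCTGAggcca
All 4 had the D box letters, and Snord93 lacked the exact C box letters in this window.

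The libraries held 20587640 to 26572260 counts, and 3 counts corresponded to 0.113 to 0.146 CPM. After TMM normalisation, which scales each library for its size and composition, Postn itself was at 4.66, 4.27 and 5.67 CPM in Postn-/- and 10.1, 10.3 and 6.90 CPM in wt. Its log2 fold change, here and throughout that of Postn-/- over wt, was -0.91 (SE 0.22). In the quasi-likelihood test of edgeR the unadjusted p was 0.00362 and the p with Benjamini-Hochberg adjustment over all genes was 0.717. The transcript was lower in every Postn-/- sample but was not at 0, and gene totals do not show which exons the reads came from. Of the chondrocyte markers, all 10 passed the filter and their summed level was 32313 to 43308 CPM in Postn-/- and 25706 to 39159 CPM in wt. The median log2 fold change of these 10 was 0.11. Of them, 1, the cartilage collagen gene Col2a1, had an unadjusted p of at most 0.05 with a higher level (log2 fold change 0.68, unadjusted p = 0.0125, adjusted p = 0.717 from edgeR), against 3.95% of all genes tested. Matn1, Snorc, Col11a1 and Hapln1 were at -0.27, -0.15, -0.14 and -0.03 on the log2 scale and did not pass. Markers of other cells of the joint were also present: those of perichondrial or synovial fibroblasts summed to 1998 to 3987 CPM in Postn-/- and 2341 to 3419 CPM in wt, and those of osteoblasts and osteoclasts to 828 to 1013 CPM and 707 to 1412 CPM. The skeletal muscle markers summed to 13.9 to 15.2 CPM in Postn-/- and 17.7 to 25.4 CPM in wt. Of these 4 markers, Myh3 and Ckm were too low to be tested. Acta1 was at a log2 fold change of -1.30 (unadjusted p = 0.0152, adjusted p = 0.717 from edgeR) and Tnnt3 at -0.17 (unadjusted p = 0.378 from edgeR), where 2.35% of all genes tested had an unadjusted p of at most 0.05 with a lower level. Blood markers summed to at most 47.3 CPM in any sample and endothelial markers to at most 8.01 CPM. The part of other cell types in the lincRNA levels was not tested.

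The 144 lincRNAs together took 2.15%, 1.44% and 1.46% of all counts in the Postn-/- samples and 1.63%, 1.98% and 2.00% in the wt samples, so the genotypes overlapped. In such bulk samples, fewer cells that hold an RNA and less of it in each cell cannot be told apart. Gm42418, Malat1 and Neat1 made up 89.2% to 92.6% of these counts. The other 141 lincRNAs took 0.158%, 0.148% and 0.157% of all counts in the Postn-/- samples and 0.163%, 0.161% and 0.162% in the wt samples. For these the genotypes did not overlap, and every Postn-/- sample was below every wt sample by a small margin. This difference was not tested. Genes of the biotypes rRNA and Mt_rRNA, the mitochondrial ribosomal RNAs, together took 0.155%, 0.0963% and 0.156% of all counts in Postn-/-. In wt they took 0.172%, 0.212% and 0.213%, also without overlap. Whether this difference and that of the 141 lincRNAs are linked was not tested. Biotype rRNA alone took 0.00367%, 0.00237% and 0.00287% in Postn-/- and 0.00321%, 0.00353% and 0.00411% in wt, and the genotypes overlapped. Without Gm42418, the share of the members fell to between 0.420% in Postn-/- sample 2 and 1.24% in wt sample 3.

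**Figure D1:**
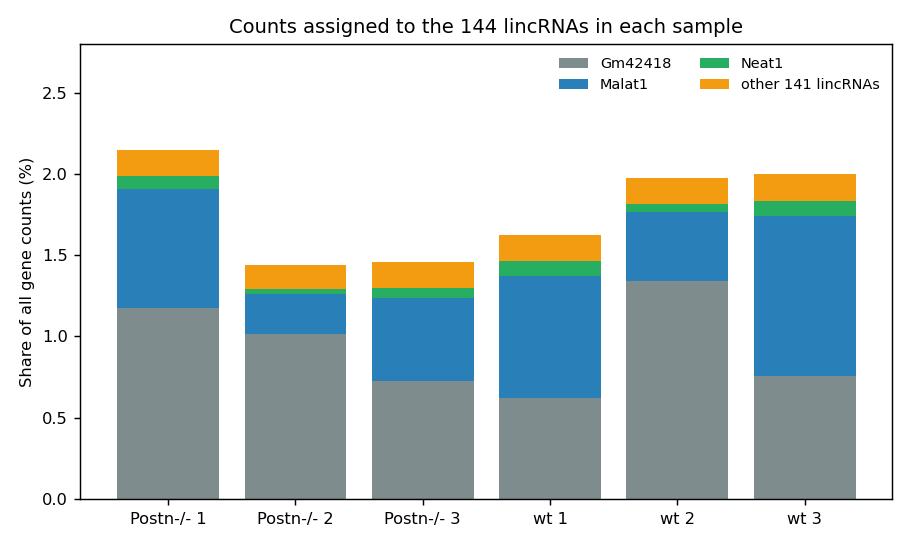
Stacked bars give, for each of the 6 samples, the share of all gene counts (%) assigned to Gm42418, Malat1, Neat1 and the other 141 lincRNAs. Gm42418 ranged from 0.622% in wt sample 1 to 1.34% in wt sample 2, and the 141 others took 0.148% to 0.158% in Postn-/- and 0.161% to 0.163% in wt.

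Gm42418 (chr17:39846958-39848788, plus strand) had the highest level, at 12141.5, 10065 and 7130.5 CPM in Postn-/- and 6357, 13637 and 7499 CPM in wt. Both the lowest and the highest value were from wt samples. The log2 fold change was 0.09 (95% interval -0.66 to 0.85, unadjusted p = 0.782 from edgeR). Its exon lies almost wholly on an annotated ribosomal RNA gene: 99.5% of its positions are shared with other genes, and 94.9% of its 50-base words (every stretch of 50 bases in its transcript) occur in CT010467.1, a gene of biotype rRNA on the opposite strand. One such word, from chr17:39847873-39847922 on the plus strand, is printed because its reverse complement starts at base 280 of CT010467.1.
Gm42418 bases 916 to 965: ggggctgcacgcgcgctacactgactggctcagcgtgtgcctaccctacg
The count under the label Gm42418 therefore cannot be told apart from ribosomal RNA. Gm26917, which ends just before it on the same strand (chr17:39843013-39846341), was at 32.7, 31.6 and 29.9 CPM in Postn-/- and 18.9, 33.3 and 21.4 CPM in wt. None of the 50-base words of Gm26917 occurred in a GENCODE M21 transcript of another gene, and sequence outside these transcripts was not searched. The log2 fold change of Gm26917 was 0.36 (SE 0.21, unadjusted p = 0.123 from edgeR).

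Malat1 (chr19:5795690-5802672, minus strand), the speckle RNA, was at 7613, 2433 and 5005 CPM in Postn-/- and 7667, 4291 and 9756 CPM in wt. The samples spanned a 4.01-fold range, with Postn-/- sample 2 lowest and wt sample 3 highest, and the genotypes overlapped. The log2 fold change was -0.53 (95% interval -1.53 to 0.48, unadjusted p = 0.259 from edgeR), and it depended on single libraries: it was -0.96 without Postn-/- sample 1, -0.80 without wt sample 2, -0.25 without wt sample 3 and -0.20 without Postn-/- sample 2. Neat1 (chr19:5824708-5845478, minus strand), the paraspeckle RNA and a neighbour of Malat1, was at 852, 256 and 628 CPM in Postn-/- and 922, 494 and 897 CPM in wt. Postn-/- sample 2 was again the lowest, and wt sample 2 was the lowest wt sample for both RNAs. The log2 fold change of Neat1 was -0.41 (95% interval -1.38 to 0.55, unadjusted p = 0.351 from edgeR), and it ran from -0.80 without Postn-/- sample 1 to -0.062 without Postn-/- sample 2.

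Malat1 and Neat1 varied more between samples of one genotype than most genes of like level. The coefficient of variation of Neat1, averaged over the genotypes, was 41.6%, higher than in 96.8% of the 157 genes within 0.5 log2 units of its mean CPM. That of Malat1 was 44.9%, in a set of 8 genes of like level. Both sets, of 157 and of 8 genes, count the RNA itself. The share of counts on the mitochondrial chromosome was also lowest in Postn-/- sample 2, at 0.344%, and highest in wt sample 3, at 0.823%, and its part in the spread of Malat1 and Neat1 was not tested.

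Proteins that work with these RNAs were taken as lists. Of the 22 paraspeckle proteins, all tested, none had a higher level and 1 a lower level in Postn-/- at an unadjusted p of at most 0.05, and the median log2 fold change was -0.08. The 1 was Tardbp, an RNA-binding protein of paraspeckles. Of the 20 nuclear speckle proteins, 19 were tested, none was higher and 1, the splicing coactivator Srrm1, was lower, with a median of -0.19. Over all 14533 genes tested the median was 0.0042, 3.95% passed this threshold with a higher level in Postn-/- and 2.35% with a lower level. edgeR gave every tested gene of both lists an adjusted p above 0.05.

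Below these 3 RNAs the levels fell quickly. Only 5 members had a mean above 100 CPM, 21 lay between 10 and 100 CPM and 118 at or under 10 CPM, with 74 of these under 3 CPM. The median member was at 2.82 CPM, and the median of all genes tested was 15.2 CPM. Per kilobase of exon the median member was at 1.52 CPM and the median gene at 3.63 CPM. The lowest CPM over the 6 samples was 1.01 in 4732487G21Rik and 4833412C05Rik and 1.02 in Gm17484, just inside the threshold, and 0.978 in AW112010 and 1700018A04Rik and 0.971 in B230317F23Rik, just outside. A further 185 lincRNAs were above 1 CPM in some but not all samples, 2188 in none, and 568 of the latter had no count in any sample.

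Tmem250-ps, by its name a pseudogene of a membrane protein gene, came next in level at 421, 380 and 364 CPM in Postn-/- and 480, 402 and 390 CPM in wt. Its log2 fold change was -0.13 (SE 0.12), and without wt sample 1 it was -0.030. 1810058I24Rik, which has since been described as coding for a small mitochondrial protein, was at 224, 240 and 285 CPM in Postn-/- and 215, 253 and 243 CPM in wt. Its log2 fold change was 0.08, with a 95% interval of -0.22 to 0.37. The genotypes overlapped for both genes.

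1700020I14Rik was at 75.4, 55.2 and 58.1 CPM in Postn-/- and 67.9, 82.4 and 71.3 CPM in wt. Gm28875 was at 20.8, 43.4 and 24.2 CPM and at 44.1, 29.1 and 30.0 CPM, with the highest sample of each genotype at nearly the same level. Pvt1, which lies 52595 bases from the start of the growth regulator gene Myc, was at 37.9, 24.9 and 32.8 CPM in Postn-/- and 26.5, 31.3 and 32.4 CPM in wt. Its log2 fold change was 0.08 (SE 0.17), beside -0.32 for Myc (unadjusted p = 0.0374 and adjusted p = 0.717 from edgeR).

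Compared per kilobase of exon, Gm42418 at 5173 CPM per kb and Malat1 at 878 stayed first and second. Neat1, whose annotated exon is 20771 bases long, moved to the eighth place at 32.5 CPM per kb, behind Tmem250-ps at 164, 1810058I24Rik at 87.4, Snhg18 at 62.0, Gm28875 at 49.8 and Snhg6 at 48.4.

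**Figure D2:**
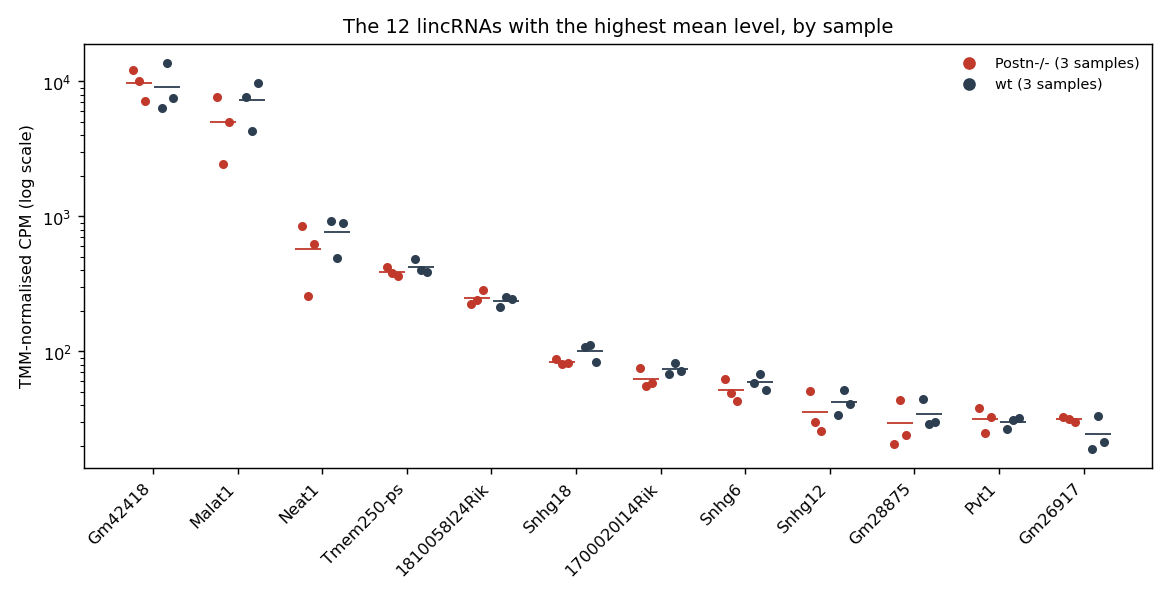
TMM-normalised CPM (log axis) of the 12 lincRNAs with the highest mean, with a point for each sample and a bar at the mean of each genotype. Levels fall from 9472 CPM for Gm42418 to 28.0 CPM for Gm26917, and the genotypes overlap for every gene shown.

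Among the small nucleolar RNA hosts, Snhg18 (chr15:32240565-32244662, minus strand) was at 87.3, 80.6 and 82.1 CPM in Postn-/- and 107, 111 and 83.0 CPM in wt. The third wt sample lay within the range of the Postn-/- samples. The log2 fold change was -0.27 (SE 0.13, unadjusted p = 0.0710 from edgeR). Snhg6 was at 63.0, 49.5 and 43.0 CPM and at 58.0, 68.2 and 51.4 CPM, with a log2 fold change of -0.19 (SE 0.17). Snhg12, which holds Snora16a, Snora44, Snora61 and Snord99, was at 51.0, 30.0 and 25.6 CPM and at 34.1, 52.0 and 40.8 CPM, with a log2 fold change of -0.25 (SE 0.27).

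2700038G22Rik (chr5:23850597-23855038, plus strand), the host of Snord93, had the smallest p-value of the 144. It was at 6.15, 8.05 and 7.15 CPM in Postn-/- and 9.88, 12.4 and 11.0 CPM in wt. Every Postn-/- sample was below every wt sample. The log2 fold change was -0.64 (95% interval -1.04 to -0.23, unadjusted p = 0.00685 and adjusted p = 0.717 from edgeR), and it lay between -0.74 and -0.54 when each sample was left out in turn. 2900076A07Rik (chr7:81523550-81531498, plus strand), which holds Mir1839, annotated both as a small Cajal body RNA and as a microRNA, was at 9.56, 5.78 and 7.72 CPM in Postn-/- and 11.8, 12.0 and 11.0 CPM in wt. It was also lower in every Postn-/- sample, with a log2 fold change of -0.60 (95% interval -1.07 to -0.12, unadjusted p = 0.0200 and adjusted p = 0.717 from edgeR). Of its exon positions, 21.2% lie on other annotated genes.

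Snhg20 was at 9.36, 5.73 and 8.10 CPM in Postn-/- and 8.04, 7.24 and 8.96 CPM in wt. Epb41l4aos was at 6.23, 6.83 and 5.34 CPM and at 4.19, 7.65 and 5.13 CPM. The genotypes overlapped for both, and the log2 fold changes were -0.06 and 0.12. The wider list of small nucleolar RNA hosts of any biotype held 14 genes, of which 13 were tested and Snhg3, under 1 CPM in every sample, was not. Of the 13, none was higher and 2 were lower in Postn-/- at an unadjusted p of at most 0.05, both of them outside the lincRNA biotype: Snhg5, with a log2 fold change of -0.55, and Snhg9, with -1.09, each with an adjusted p of 0.717 in edgeR. Of all genes tested, 3.95% passed with a higher level and 2.35% with a lower level. The median of the 13 was -0.25. Transcripts of such hosts are known to be cleared by nonsense-mediated decay, and of 16 genes of that pathway, all tested, none passed the unadjusted threshold in either direction and the median log2 fold change was -0.07.

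Of the microRNA hosts, Mir17hg was at 2.73, 1.87 and 1.91 CPM in Postn-/- and 2.61, 3.03 and 2.88 CPM in wt, with 2 of the 3 Postn-/- samples below all wt samples. Its log2 fold change was -0.38 (SE 0.24, unadjusted p = 0.151 from edgeR). 6720427I07Rik, the host of the 3 let-7 genes, was at 5.79, 2.73 and 5.004 CPM in Postn-/- and 7.38, 4.98 and 4.89 CPM in wt, with a log2 fold change of -0.35 (SE 0.32). Mirg, which lies in the imprinted region of chromosome 12 and holds 14 annotated microRNAs, was at 5.30, 3.46 and 4.24 CPM and at 8.34, 2.81 and 5.70 CPM. The wt samples of Mirg enclosed all Postn-/- samples. E130102H24Rik, the host of Mir101a, was lower in every Postn-/- sample, at 1.37, 1.02 and 1.52 CPM against 1.61, 1.67 and 1.82 CPM, with a log2 fold change of -0.39 (SE 0.26). A430106G13Rik, the host of Mir181b-1, was at 2.89, 1.02 and 2.91 CPM and at 1.31, 1.403 and 2.396 CPM.

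**Figure D3:**
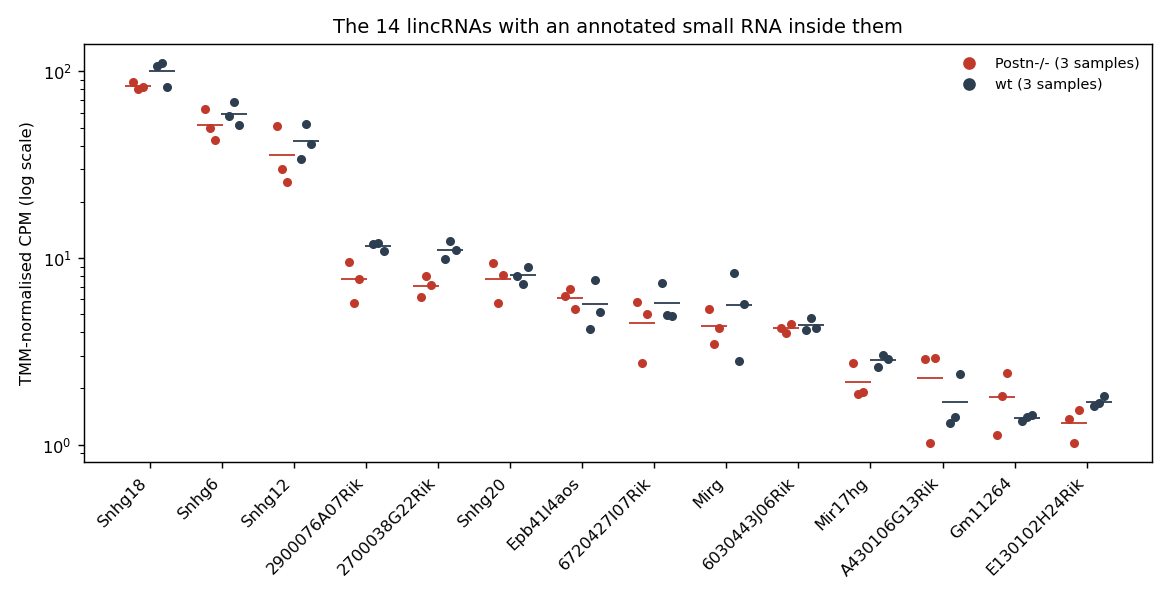
TMM-normalised CPM (log axis) of the 14 lincRNAs that hold an annotated small RNA, with a point for each sample and a bar at the mean of each genotype. The Postn-/- samples lie below the wt samples for 2900076A07Rik, 2700038G22Rik and E130102H24Rik, and the genotypes overlap for the other 11; of all genes tested, 6.57% were lower and 7.03% higher without overlap.

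By the quasi-likelihood test of edgeR, 0 of the 144 lincRNAs reached an adjusted p of 0.05 or less, where 2 of all 14533 genes tested did (0.0138%), and the smallest adjusted p of a lincRNA was 0.717. DESeq2's Wald test and limma's voomWithQualityWeights, with and without surrogate variables, also called 0 of the 144. At an unadjusted p of at most 0.05, 8 lincRNAs passed in edgeR, which is 5.56% of the members against 6.30% of all genes tested. DESeq2 passed 7, limma 9, and limma with surrogate variables 13, but the shares of all genes that passed in these fits are not given here. Of the 8, 4 were higher in Postn-/- (2.78% of the members, where 3.95% of all genes were) and 4 were lower (2.78%, where 2.35% of all genes were). These shares from edgeR are near those of all genes.

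The log2 fold changes of the 144 ran from -0.87 to 0.81, with none reaching 1 in size and 127 under 0.5. The median was -0.047, beside 0.0042 for all genes tested, with 67 above 0 and 77 below. Genotypes did not overlap for 15 lincRNAs: 6 were higher in every Postn-/- sample (4.17%, against 7.03% of all genes tested) and 9 lower (6.25%, against 6.57%). The precision was modest, since the 95% interval of the median member reached 0.63 log2 units to each side. For 97 of the 144 the whole interval lay within -1 and 1, so a change of 2-fold or more was outside it. For the others the interval reached beyond -1 or 1.

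**Figure D4:**
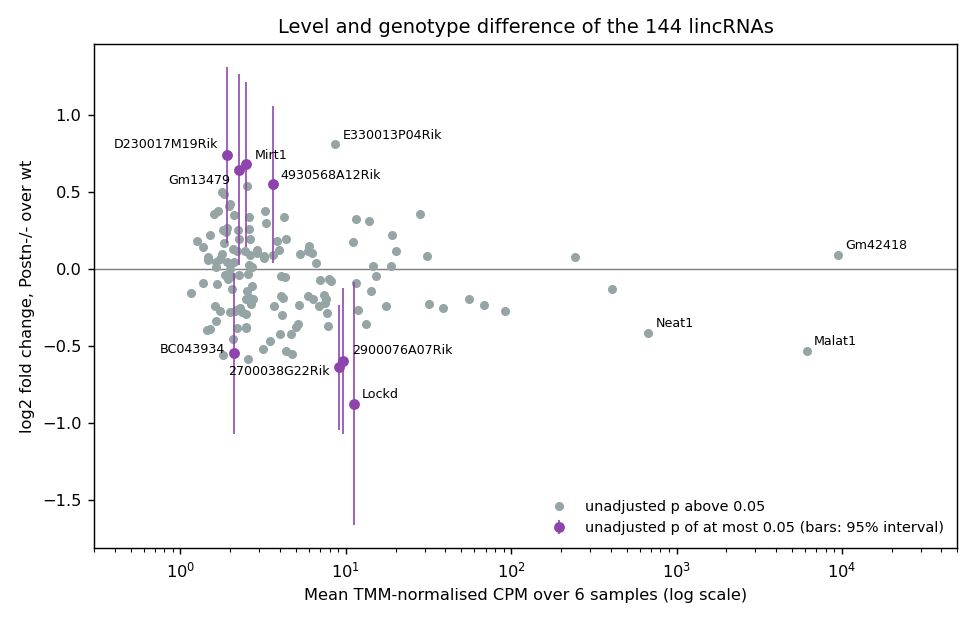
Log2 fold change of Postn-/- over wt against mean TMM-normalised CPM (log axis) for the 144 lincRNAs. The 8 with an unadjusted p of at most 0.05 are marked with their 95% intervals, none has an adjusted p of at most 0.05, and all 144 values lie between -0.87 and 0.81.

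The other 6 of the 8 were as follows. Lockd (chr6:134929092-134956798, plus strand), named for its place downstream of the cell cycle inhibitor gene Cdkn1b, had the lowest fold change of the 144. It was at 7.07, 11.6 and 5.05 CPM in Postn-/- and 20.0, 12.4 and 11.1 CPM in wt, and the second Postn-/- sample lay above the third wt sample. The log2 fold change was -0.87 (95% interval -1.66 to -0.08, unadjusted p = 0.0341 and adjusted p = 0.717 from edgeR), and without 1 sample it ranged from -1.26 to -0.57. Cdkn1b, on the same strand, had a log2 fold change of -0.41 (unadjusted p = 0.0298 and adjusted p = 0.717 from edgeR). The 6 proliferation markers summed to 184 to 418 CPM in Postn-/- and 351 to 675 CPM in wt, all 6 had values below 0 with a median of -0.69 and 1, Ccnb1, passed the unadjusted threshold, where 2.35% of all genes tested passed with a lower level, and their part in the level of Lockd was not tested.

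D230017M19Rik (chr1:72236465-72274869, plus strand), which overlaps the coding gene Pecr on the opposite strand, was at 2.33, 2.03 and 2.86 CPM in Postn-/- and 1.46, 1.27 and 1.58 CPM in wt. It was higher in every Postn-/- sample, with a log2 fold change of 0.74 (SE 0.25, unadjusted p = 0.0173 from edgeR). Mirt1 (chr19:53443230-53464796, minus strand), named after a transcript seen in infarcted heart, was at 2.93, 3.50 and 2.76 CPM and at 1.73, 1.76 and 2.25 CPM, with a log2 fold change of 0.68 (SE 0.23, unadjusted p = 0.0189 from edgeR). All Postn-/- samples were above all wt samples here too.

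4930568A12Rik (chr1:34477167-34485933, minus strand) was at 4.86, 4.19 and 3.86 CPM in Postn-/- and 2.81, 3.48 and 2.54 CPM in wt. Gm13479 (chr2:45357265-45404035, plus strand) was at 2.33, 3.09 and 2.91 CPM and at 1.81, 1.31 and 2.20 CPM. Both were higher in every Postn-/- sample, with log2 fold changes of 0.55 (unadjusted p = 0.0376 from edgeR) and 0.64 (unadjusted p = 0.0434 from edgeR). BC043934 (chr9:96435783-96438138, minus strand) was lower in every Postn-/- sample, at 1.97, 1.67 and 1.48 CPM against 2.65, 2.44 and 2.40 CPM, with a log2 fold change of -0.55 (unadjusted p = 0.0427 from edgeR). The adjusted p was 0.717 for each of these 5 genes. When each sample was left out in turn, 2700038G22Rik kept an unadjusted p of at most 0.05 in 6 of 6 fits, 2900076A07Rik in 5, D230017M19Rik in 4, Lockd and Mirt1 in 3, Gm13479 in 2, and 4930568A12Rik and BC043934 in 1.

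**Figure D5:**
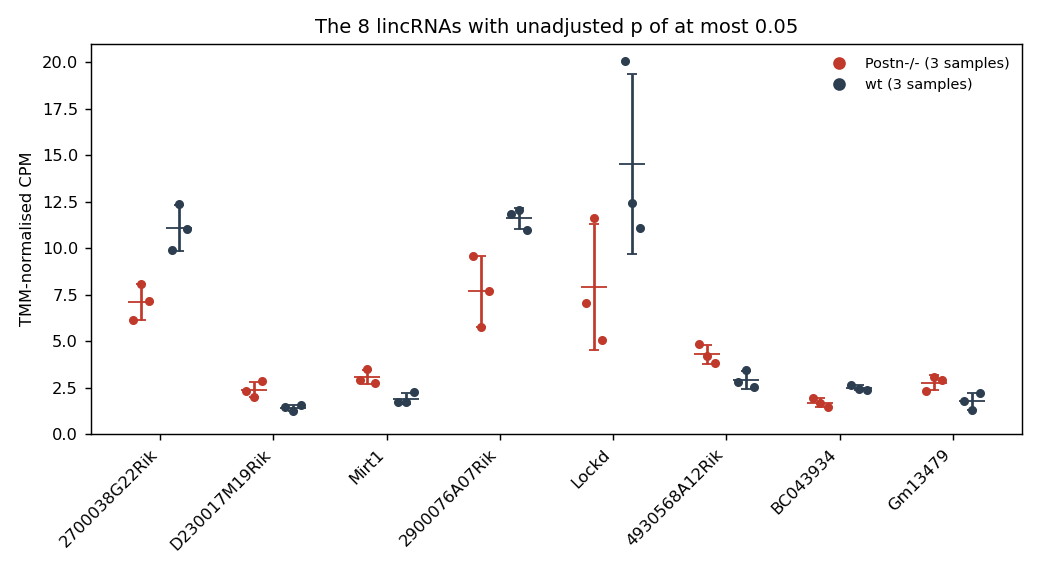
TMM-normalised CPM of the 8 lincRNAs that passed the unadjusted threshold of 0.05 in edgeR, ordered by p, with a point for each sample, a bar at the mean and whiskers of 1 SD (n = 3 per genotype). The genotypes do not overlap for 7 of the 8, Lockd being the exception, but the 8 were chosen by p on these same samples. Of all genes tested, 6.57% were lower and 7.03% higher without overlap.

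E330013P04Rik had the highest fold change, 0.81 (95% interval -0.42 to 2.04, unadjusted p = 0.167 from edgeR), and it came from 1 sample. It was at 21.6, 4.92 and 6.58 CPM in Postn-/- and 7.69, 4.48 and 6.71 CPM in wt. Without the first Postn-/- sample the log2 fold change was -0.13. Its coefficient of variation, 54.7%, was the highest of the 144. At the other end, 1300002E11Rik varied least, at 11.3, 11.2 and 11.0 CPM in Postn-/- and 11.8, 11.4 and 12.4 CPM in wt. These genotypes did not overlap, yet the log2 fold change was only -0.09 (SE 0.13). Over all members the median coefficient of variation was 21.1%, and 77 of the 144 were above the median of genes at their own level.

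By position in GENCODE M21, 25 lincRNAs started within 1 kb of the start of a coding gene on the other strand and ran away from it. These were classed as divergent whether or not they also overlapped a coding gene. Of the others, 38 overlapped a protein-coding gene, and a further 7 lay within 5 kb downstream of a coding gene on the same strand. The nearest coding start was within 50 kb for 37 more and farther for the last 37. Median levels ran from 2.55 CPM in the overlapping class to 11.2 CPM in the downstream class, which holds Neat1, Gm28875 and Lockd. The median log2 fold change was 0.03 for the overlapping class, -0.03 for the divergent class, -0.22 for the downstream class, -0.18 within 50 kb and 0.08 beyond.

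All 25 divergent coding partners were tested, and 21 of them were at a higher CPM than their lincRNA. The partners' log2 fold changes ran from -0.77 to 0.50, and 4 of the 25 passed the unadjusted threshold of 0.05 in edgeR, where 6.30% of all genes tested did. The adjusted p was 0.717 for each of these 4. Gm14230 was at -0.47 beside -0.77 for Tgif2, a repressor of TGF-beta signalling, and A330035P11Rik at 0.26 beside 0.37 for Tm9sf2. By contrast 2010320M18Rik was at -0.05 beside 0.50 for Pik3r2, a regulatory subunit of PI 3-kinase, and 4930480K23Rik at -0.11 beside 0.45 for Chmp7. Snhg18 and Sema5a, whose starts are 148 bases apart, were at -0.27 and -0.15. Across the 25 pairs, which share the same 6 libraries, Pearson's r between the values was 0.25.

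Of the members, 17 shared 20% or more of their 50-base words or exon positions with another gene, and 105 shared under 5% of their words. Gm10076 shared 69.9% of its words with Rpl41, which codes for a small protein of the ribosome, and the longest stretch found in both was 150 bases. Its central part is printed because a 50-base read from within the shared stretch fits both genes and has no unique place.
Gm10076 bases 295 to 324: tgccctggacccccggcactctggactagc
Gm10076 was at 7.51, 7.16 and 6.15 CPM in Postn-/- and 8.92, 7.74 and 7.62 CPM in wt. Rpl41 was at 276, 276 and 245 CPM in Postn-/- and 391, 389 and 334 CPM in wt. Both were lower in every Postn-/- sample, with log2 fold changes of -0.22 and -0.49. Only uniquely aligned reads were counted, and the part of the shared stretch in either count was not tested. Trp53cor1, known as lincRNA-p21 and found 11797 bases from Cdkn1a, shared 38.4% of its words with another lincRNA gene, and its log2 fold change was 0.19 beside 0.30 for Cdkn1a.

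On chromosome 3, which carries Postn, the list held 3 lincRNAs. 4632415L05Rik, 4632404H12Rik and Gm17308 lay 34.5, 35.4 and 49.3 Mb from the Postn gene, and their log2 fold changes were -0.17, 0.09 and 0.01.

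Samples differed from each other across the whole list. Relative to each gene's mean, the median log2 level of the 144 lincRNAs was -0.14 in Postn-/- sample 2, 0.11 in wt sample 3 and between -0.02 and 0.05 in the other 4 samples. Postn-/- sample 2 held the lowest value for 38 of the 144 and wt sample 3 for 11. Over all genes tested the same median stayed between -0.02 and 0.01 in every sample. Without Postn-/- sample 2, the median log2 fold change of the lincRNAs was -0.0053 and 5 had an unadjusted p of at most 0.05. For this fit the share of all genes that passed is not given here.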

How the data were processed

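RNA from cultured chondrocytes of 3 Postn-/- and 3 wt mice was amplified with the SMARTer Ultra Low kit, which does not keep strand, and read as 50-base single ends. Per the labels and the study's methods alignment by the authors used STAR 2.0.4b, and featureCounts 1.4.5 gave the number of uniquely aligned and unambiguous reads per gene. Whether counting used strand is not given in the sources used here, and without strand a read on 2 overlapping genes of the files would be ambiguous and left out of both. For each sample the authors deposited raw counts of 41388 genes, the CPM, a gene's count relative to the summed counts of its library, and the RPKM, which is the CPM per kilobase of exon. The deposited CPM chose the lincRNAs, the deposited counts were tested, and the deposited RPKM was only checked against the counts. The labels name the build mm9, but of the 40340 identifiers matched to GENCODE M21 (97.5%), 99.5% overlap their M21 position, so positions are on GRCm38.

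The filter asked for a CPM above 1 in 2 or more samples and left out 355 ribosomal RNA genes. It passed 14533 genes, among them all 144 lincRNAs. edgeR 4.0.16 in R 4.3.3 compared Postn-/- with wt by TMM and the quasi-likelihood test without covariates, with Benjamini-Hochberg adjustment over all genes tested. Standard errors divide the size of the log2 fold change by the root of F. The 95% intervals use the total degrees of freedom of the fit, residual and prior together. CPM values in the text are TMM-normalised. The fits were also run on simulated data, and the outcome is not given here. Alternatives were DESeq2 1.42.0, voomWithQualityWeights of limma 3.58.1, alone and with 2 surrogate variables from sva 3.50.0, other scalings and filters, the replicate block and leaving out each sample.

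The members and the gene lists were chosen with earlier results of these data known. Named were the 12 lincRNAs with the highest mean, those with an unadjusted p of at most 0.05, those on a list of known lincRNAs, the 3 nearest the CPM threshold on each side, the members with the highest and lowest fold change, and Postn. Other lincRNAs, small RNA hosts among them, and coding genes were named after their values were seen. Sequences came from RefSeq tables of GRCm38.p6 and from GENCODE M21 transcripts.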

Additional observations from a re-analysis of the deposited data

How the results depend on the processing

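No lincRNA had an adjusted p of at most 0.05 under any of the 15 alternatives to edgeR's test, of which 0.236 was the smallest adjusted p. The 8 lincRNAs with an unadjusted p of at most 0.05 became 13 in limma with surrogate variables. Leaving out each sample in turn gave between 3 and 13: 13 without Postn-/- sample 1, 5 without Postn-/- sample 2, 3 without Postn-/- sample 3, 5 without wt sample 1, 12 without wt sample 2 and 10 without wt sample 3. The median log2 fold change stayed below 0, from -0.096 to -0.0053, in these fits. Leaving Gm42418, Malat1 and Neat1 out of the library sizes gave 8, and leaving out the 17 lincRNAs that share sequence or positions gave 7; both were chosen after seeing the data. For all genes tested, the share that passed is given for the main fit of edgeR only, at 6.30%. The moves of these counts are therefore not read as particular to the lincRNAs. A threshold of 0.5 CPM would have taken 259 lincRNAs and one of 2 CPM 73. The members' mean share of all counts, 1.77%, was 0.834% without Gm42418. The 15 lincRNAs whose genotypes did not overlap became 16 with DESeq2's size factors and 15 with the upper quartile.

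With the replicate number as a block, 10 lincRNAs had an unadjusted p of at most 0.05 and none an adjusted one. The share of all genes that passed in this fit is not given here either. Same-numbered samples are different mice, and their deviations from the genotype means correlated at 0.08, 0.16 and 0.14 for numbers 1, 2 and 3, so the numbers were not taken as pairs.

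Of 25 named lincRNAs, 18 kept their direction in every fit run and 7 changed sign when 1 sample was left out. Over the fits that leave out 1 sample, Gm42418 ran from -0.11 (without wt sample 1) to 0.50, and was also below 0, at -0.091 and -0.032, without Postn-/- sample 1 and wt sample 3. Pvt1 ran from -0.061 (without Postn-/- sample 1) to 0.23, E330013P04Rik from -0.13 (without Postn-/- sample 1) to 1.16, 1810058I24Rik from -0.032 (without Postn-/- sample 3) to 0.15 and Epb41l4aos from -0.058 (without wt sample 1) to 0.40. Snhg20 ran from -0.22 to 0.11 (without Postn-/- sample 2) and was at 0.017 without wt sample 3, and Mirg ran from -0.70 to 0.030 (without wt sample 1). Of those that kept their direction, Malat1 ran from -0.96 to -0.20, Neat1 from -0.80 to -0.062, Gm28875 from -0.62 to -0.0038, Snhg12 from -0.60 to -0.067, Snhg6 from -0.36 to -0.078, 1700020I14Rik from -0.38 to -0.15, Mir17hg from -0.59 to -0.29, Tmem250-ps from -0.19 to -0.030 and Gm26917 from 0.20 to 0.64. The cause was not tested.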
